A study of Mus musculus with 3 samples.

Results

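The genes described here are 40 genes of DNA replication and S phase, chosen by name from what their products do. The choice was made with earlier results of these data known. The table of RNA sequencing, from 3 kinds of mouse cell, held 18245 genes. The 40 genes cover origin licensing, helicase activation, the sliding clamp and its loader, the polymerases, lagging-strand processing, nucleotide supply, chromatin assembly, and entry into S phase. All 40 were measured and all passed the filter on low counts in each comparison. Messenger RNA was read in 3 libraries each of CDC, CDC-EpiC and pEpiC. CDC are cardiosphere-derived cells, adherent cells that grow out of epicardial explants by way of floating spheres. CDC-EpiC is an epithelial clone lifted with a cloning cylinder from CDC cultures given SB-431542, which blocks the kinase of TGF-beta type I receptors, at 10 µM over 2 weeks, and it is 1 clone. pEpiC are primary epicardial cells, freed by enzymatic digestion and grown without passing through spheres. All came from adult C57BL/6 mice, with no transgene or allele named for any kind. The study's methods describe peeled ventricle epicardium for CDC and digestion of the dissected heart for pEpiC, so the starting tissue may differ. The culture media of CDC and pEpiC differed, so medium and kind of cell cannot be told apart. In CDC-EpiC vs CDC the SB-431542, the 2 weeks of culture with it and the picking of 1 clone cannot be told apart. The labels list 1 sample per kind with 3 library columns. The extraction protocol speaks of separate samples and the study's methods of biological replicates, in a number other than that of the columns, and neither says whether they are separate animals or cultures. The p-values therefore measure only the spread among these libraries, part of which may be technical. As CDC-EpiC is 1 clone, the spread of its libraries does not cover differences between clones or animals. Each pair of comparisons shares a kind, hence its libraries.

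Replication is licensed in G1, when the origin recognition complex, Cdc6 and Cdt1 load the ring of Mcm2 to Mcm7 onto DNA. At the start of S phase that ring becomes a working helicase. Cdc45, the GINS complex, Mcm10, and cyclin E with its kinase are among the factors needed. Polymerase alpha with primase, the Pcna clamp and polymerases delta and epsilon then copy the strands. Many of these genes are targets of the E2F transcription factors, which the RB family of pocket proteins holds in check, so their transcripts rise and fall together as cells enter or leave the cycle. In libraries from bulk cultures a smaller share of cycling cells and less RNA of these genes in each cell cannot be told apart.

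The promoters of the 40 genes were read for short motifs, a search planned whatever their changes. Many genes of this kind are E2F targets, so the share with an E2F core describes the genes chosen, not their changes here. The RefSeq table (build GRCm38.p6) held 37 promoters of 300 bases, 250 before and 50 after the start, for 32 of the 40 genes. Gins1, Gins2, Gins4, Mcm4, Prim2, Pole, Rfc2 and Ccne2 had no entry. The E2F core was searched as TTCCCGC, and equally as TTGGCGC, and also as TTCGCGC, and lastly as TTGCCGC, on either strand and with overlapping matches counted once. It was present in 24 of the 37, or 64.9%, and at least 2 cores were present in 10. A core was held by 9.57% of all 32851 promoters, and of the 13749 promoters of genes tested in pEpiC vs CDC 15.9% did. A CCAAT box (CCAAT, either strand) was in 56.8% of the 37, against 37.4% of all and 37.5% of those of tested genes. The CHR element of late cell cycle genes (TTTGAA, either strand) was in 10.8%, against 17.9% of all and 12.1% of those of tested genes. A match describes the letters in the window and is neither a binding site nor a cause. The runs below lie before the start, stop where the annotated gene begins, and hold no exon of the GENCODE M21 annotation. Only 12 genes with a single promoter had such a run, and of those the ones shown are Mcm5, Chaf1b and Mcm6, which fell most in pEpiC among those with an E2F core in the run, and Rrm1, which moved least there. Capitals mark the E2F cores.
Mcm5 (chr8:75109259-75109467, plus strand): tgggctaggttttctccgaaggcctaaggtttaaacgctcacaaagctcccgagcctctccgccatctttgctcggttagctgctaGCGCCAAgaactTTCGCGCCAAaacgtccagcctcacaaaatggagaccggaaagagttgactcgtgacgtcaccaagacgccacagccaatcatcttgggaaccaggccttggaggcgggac
Chaf1b (chr16:93883651-93883899, plus strand): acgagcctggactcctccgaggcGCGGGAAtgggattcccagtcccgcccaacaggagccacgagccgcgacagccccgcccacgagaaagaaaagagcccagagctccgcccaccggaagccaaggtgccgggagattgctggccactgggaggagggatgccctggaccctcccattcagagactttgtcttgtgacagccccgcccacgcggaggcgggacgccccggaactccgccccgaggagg
Mcm6 (chr1:128359706-128359955, minus strand): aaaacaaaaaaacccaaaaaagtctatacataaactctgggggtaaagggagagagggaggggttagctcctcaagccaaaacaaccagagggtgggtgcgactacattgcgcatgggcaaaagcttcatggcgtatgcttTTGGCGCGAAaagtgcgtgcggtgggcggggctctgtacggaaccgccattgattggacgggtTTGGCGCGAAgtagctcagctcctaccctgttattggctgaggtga
Rrm1 (chr7:102441445-102441694, plus strand): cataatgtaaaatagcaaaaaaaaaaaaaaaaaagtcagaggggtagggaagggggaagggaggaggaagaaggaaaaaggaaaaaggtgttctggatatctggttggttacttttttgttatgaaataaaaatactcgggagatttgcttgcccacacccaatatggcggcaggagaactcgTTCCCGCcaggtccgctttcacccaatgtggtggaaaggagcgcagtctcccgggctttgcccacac
The cores began 164 and 152 bases before the start in Mcm5, 227 bases before it in Chaf1b, 109 and 46 bases before it in Mcm6, and 67 bases before it in Rrm1. Rrm1, which moved least of the 40 in pEpiC vs CDC, and Mcm5, which fell most, both held a core, while the windows of Tk1, Orc6 and Ccne1 held none.

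Total expected counts were 22008833 to 22756045 per library, and the lowest count of any of the 40 genes in any library was 29. The 6 epicardial markers Wt1, Tbx18, Tcf21, Upk3b, Aldh1a2 and Msln were all detected in pEpiC, although Upk3b (62.5, 67.0 and 78.6 CPM) lay below its CDC level (219.9, 236 and 233 CPM), as did Tbx18 and Msln. CPM are counts per 1000000 counts after TMM normalization. The 4 mesenchymal and CDC markers were present in all libraries and did not mark CDC alike. Mean levels in CDC and pEpiC were 429 and 296 CPM for Eng and 291 and 122 CPM for Thy1, but 34.4 and 62.4 CPM for Ly6a and 29.0 and 352 CPM for Pdgfra. The 6 endothelial markers summed to 18.5 to 21.3 CPM in pEpiC and to at most 1.81 CPM in CDC and CDC-EpiC. Tek made up most of that sum, at 16.3 to 18.9 CPM in pEpiC, and Kdr stood at 1.31 to 1.61 CPM there, while the defining Pecam1 and Cdh5 stayed at or under 0.963 CPM in every library. Cardiomyocyte Myh6 read 8.81, 8.62 and 0 CPM in the CDC libraries and at most 0.0454 CPM elsewhere, and Actc1 read 2.95, 2.27 and 0.0453 CPM in the CDC libraries. Tnnt2 stood at 136 to 151 CPM in pEpiC, but the other cardiomyocyte markers there, Actc1, Tnni3, Ryr2 and Pln, were at or under 1.52 CPM. Tnnt2 alone therefore does not mark cardiomyocytes in pEpiC. All 10 macrophage markers were present in pEpiC, where their sum was 867 CPM in library 1 and 335 and 309 CPM in libraries 2 and 3, against 57.7 to 61.0 CPM in CDC and 22.6 to 25.2 CPM in CDC-EpiC. Of these, Ptprc, Tyrobp and Adgre1 were at or under 0.0461 CPM in every CDC and CDC-EpiC library, and C1qa, C1qb, C1qc and Fcer1g at or under 0.363 CPM. The rest were not absent there. In CDC, Lyz2 stood at 35.6 to 39.3 CPM, Csf1r at 18.6 to 20.7 CPM and Cd68 at 1.66 to 2.31 CPM. In CDC-EpiC, Cd68 stood at 12.6 to 14.5 CPM, Csf1r at 8.73 to 9.80 CPM and Lyz2 at 0.884 to 1.15 CPM.

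The 40 genes together were highest in CDC, lower in CDC-EpiC and lowest in pEpiC. Their summed level was 2593 ± 109 CPM in CDC, 1674 ± 128 CPM in CDC-EpiC and 654 ± 49.5 CPM in pEpiC (SD, n = 3). By library the sum was 2669.6, 2640.2 and 2469 CPM in CDC, 1664, 1552 and 1807 CPM in CDC-EpiC, and 708, 611 and 643 CPM in pEpiC. No library of one kind reached into the range of another. For 36 genes the means followed that order. Rrm1 and Ccne1 were lowest in CDC-EpiC instead, and Chaf1b and E2f1 had their highest mean there. Within kinds some libraries tended to lie at one end: pEpiC library 1, the one with the most macrophage transcripts, held the highest pEpiC value for 34 of the 40, CDC-EpiC library 2 held the lowest of its kind for 32, and CDC library 3 the lowest of its kind for 27. The part of the macrophage, endothelial and cardiomyocyte transcripts in these values was not tested. Without pEpiC library 1 the pEpiC vs CDC median log2 change of the 40 genes was −2.34 in place of −2.21, and 40 were still lower.

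**Figure D1:**
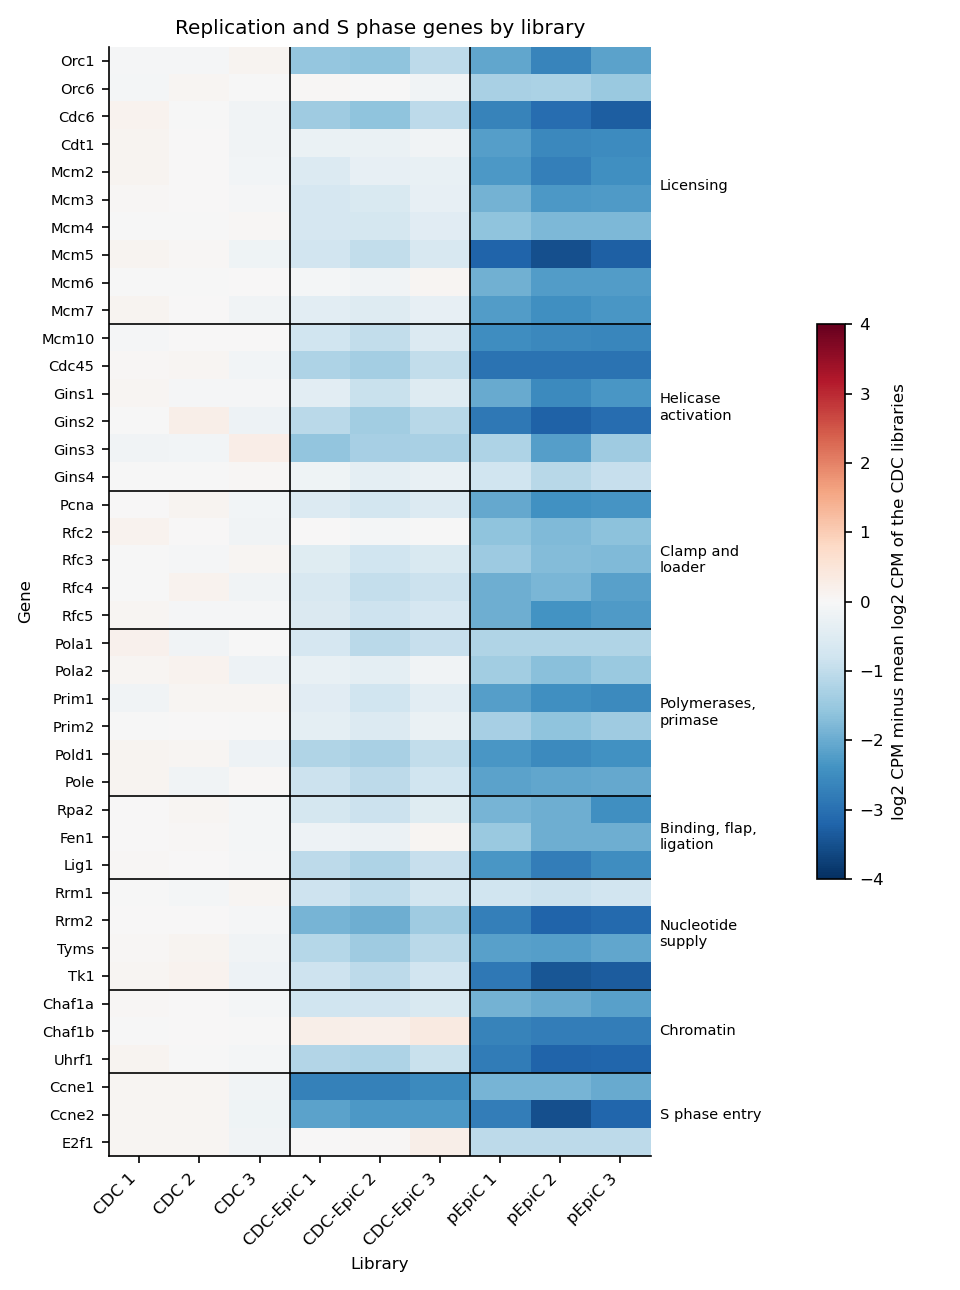
Level of each of the 40 genes (rows, grouped by role) in each of the 9 libraries (columns), as log2 CPM minus the mean log2 CPM of the CDC libraries; blue is below CDC and red above. The pEpiC columns hold the lowest mean in every row but Rrm1 and Ccne1, and in the CDC-EpiC columns Orc6, Mcm6, Rfc2 and E2f1 are nearly white and Chaf1b is pale red.

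In pEpiC vs CDC every one of the 40 genes was lower at an adjusted p under 0.05 in edgeR's quasi-likelihood test, a call made for 38.5% of the 13526 genes tested. A fall of at least 2-fold was seen for 38 of the 40, against 14.4% of all genes tested. The pEpiC libraries lay below all CDC libraries for all 40, against 38.3% of all genes. The median log2 change was −2.21, a 4.62-fold fall, where the median of all genes was 0.02. The changes ran from −3.36 in Mcm5 to −0.84 in Rrm1, and only Gins4 and Rrm1 fell by less than 2-fold. In CDC-EpiC vs CDC, 34 of the 40 were lower (34.6% of 12976 genes tested), 12 by at least 2-fold (12.4%), and 32 without overlap of libraries (35.6%). Chaf1b was higher, and Orc6, Mcm6, Rfc2, Fen1 and E2f1 did not pass the test. The median log2 change was −0.71 beside 0.00 for all genes. In CDC-EpiC vs pEpiC, 37 were higher (40.3% of 13547), 32 by at least 2-fold (15.8%), and 37 without overlap (41.3%), with a median log2 change of 1.42 beside −0.02 for all genes. Ccne1 was lower there, and Gins3 and Rrm1 did not pass. On TPM the split of calls over all genes moved, with 74.5% of pEpiC vs CDC calls higher in place of 50.8% and 32.9% of CDC-EpiC vs pEpiC calls higher in place of 49.3%; the offset for transcript length gave 39.3% and 61.6%. The 40 genes were all lower in pEpiC vs CDC under each of these.

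**Figure D2:**
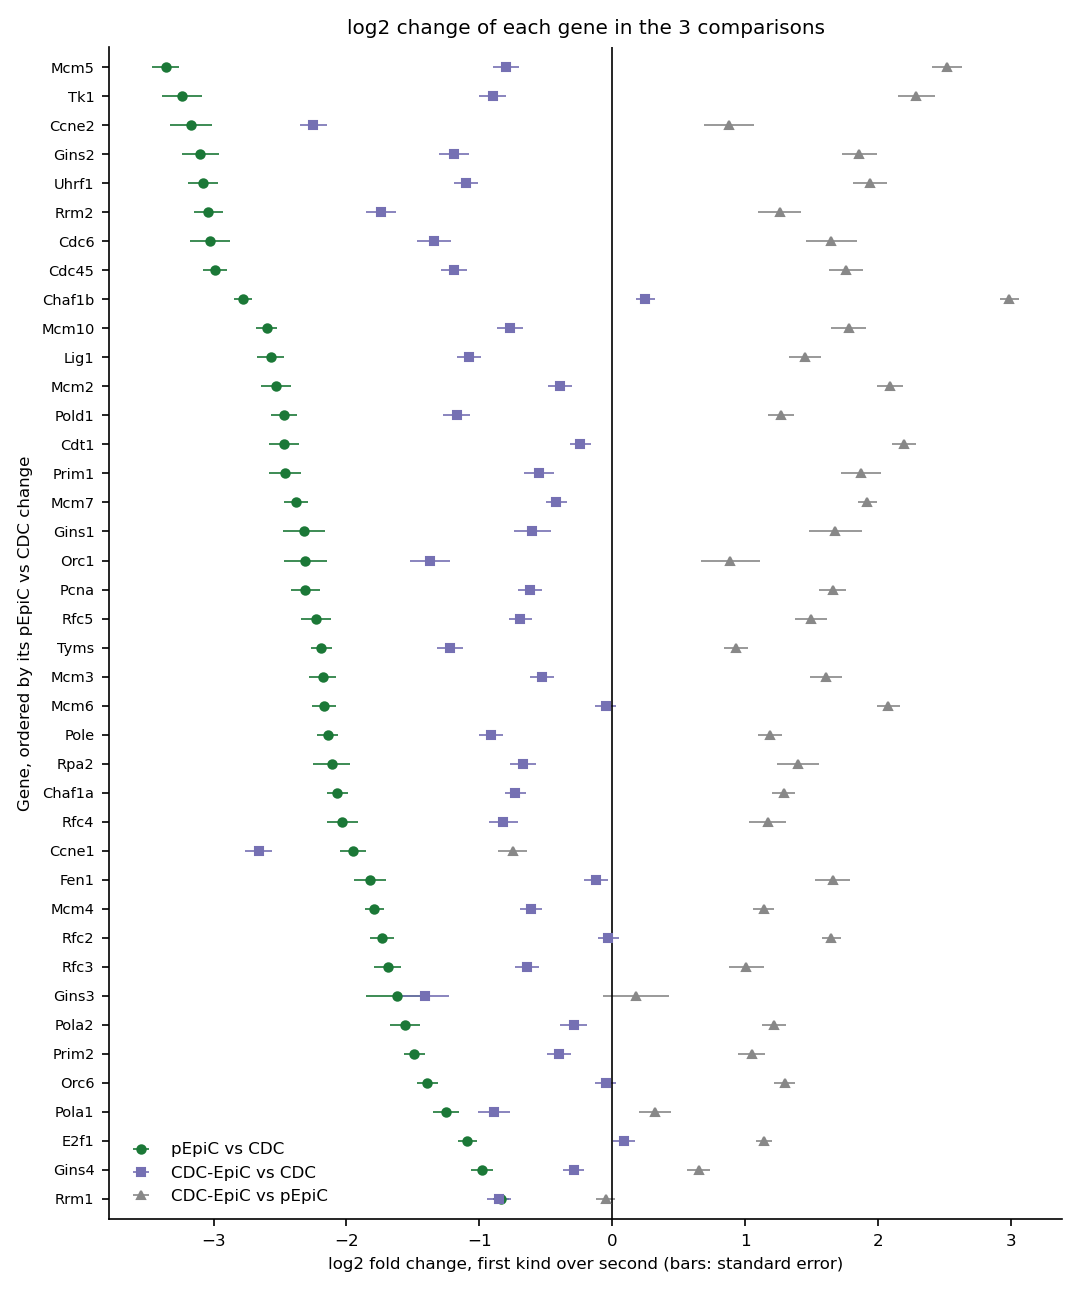
log2 fold change (horizontal axis) with its standard error for each of the 40 genes (rows, ordered by the pEpiC vs CDC change) in the 3 comparisons. All circles for pEpiC vs CDC lie left of 0, most squares for CDC-EpiC vs CDC lie between 0 and −1.5, and Ccne1 at −2.66 and Ccne2 at −2.25 stand apart to the left of the other squares.

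Licensing genes fell together in pEpiC. All 10 were lower by at least 2-fold (14.4% of all genes tested), with a median log2 change of −2.35. In CDC-EpiC vs CDC 8 of the 10 were lower (34.6% of all genes tested), with a median of −0.47. Mcm5, a ring subunit of the helicase (chr8:75109468-75128439), gave 125, 120.2 and 104 CPM in the CDC libraries, 68.3, 58.2 and 74.9 CPM in the CDC-EpiC libraries and 12.7, 10.2 and 12.0 CPM in the pEpiC libraries. The 3 kinds did not overlap, and the pEpiC level was 10.3-fold below CDC (log2 −3.36 ± 0.10 (SE), adjusted p = 2.3e-09). Mcm7 gave 157, 146 and 132 CPM in the CDC libraries, 109, 102 and 116 CPM in the CDC-EpiC libraries and 30.9, 26.4 and 28.9 CPM in the pEpiC libraries. It too separated the kinds, with log2 changes of −2.38 ± 0.09 in pEpiC vs CDC and −0.42 ± 0.08 in CDC-EpiC vs CDC. Mcm6 gave 134, 133 and 136 CPM in the CDC libraries, 128, 123 and 141 CPM in the CDC-EpiC libraries and 35.7, 28.3 and 28.6 CPM in the pEpiC libraries. Here the CDC-EpiC libraries lay on both sides of the CDC range (log2 −0.05 ± 0.08, adjusted p = 0.585) while pEpiC was 4.50-fold lower. Compared per length, as FPKM, the most abundant of the ring subunits was Mcm7 in each kind (58.7 in CDC, 45.9 in CDC-EpiC, 12.2 in pEpiC), and the lowest was Mcm4 in CDC (23.7) and CDC-EpiC (16.2) but Mcm5 in pEpiC (4.18). The FPKM ratio of Mcm5 to Mcm4, a pair picked after the values were seen, was 1.85, 1.76 and 1.46 in CDC, 1.58, 1.37 and 1.49 in CDC-EpiC, and 0.569, 0.500 and 0.608 in pEpiC. The ring subunits, whose proteins work in equal numbers, fell by unequal amounts, from 3.36 in Mcm5 to 1.79 in Mcm4 on the log2 scale.

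The loaders that act before the ring moved unequally in the clone. Cdc6, the ATPase that helps place the ring, fell by 3.03 on the log2 scale in pEpiC and by 1.34 in CDC-EpiC. Cdt1, its partner, fell by 2.47 in pEpiC, and its change in CDC-EpiC (−0.24 ± 0.08, adjusted p = 0.0207) came with overlapping libraries. Orc1, the ATPase subunit of the origin recognition complex, fell by 2.31 in pEpiC and by 1.37 in CDC-EpiC. Orc6, a further subunit, gave 38.1, 42.0 and 39.9 CPM in the CDC libraries, 41.2, 39.3 and 36.1 CPM in the CDC-EpiC libraries and 16.3, 16.6 and 14.4 CPM in the pEpiC libraries. The CDC-EpiC and CDC libraries of Orc6 overlapped (log2 −0.05 ± 0.08, adjusted p = 0.615), and in pEpiC it was 2.61-fold lower. The remaining subunits, which were not among the 40 and are named after their values were seen, changed less than Orc1 in pEpiC vs CDC. Their log2 changes were 0.19 for Orc2 and 0.51 for Orc3, both called higher, 0.12 for Orc4, which did not pass (adjusted p = 0.137), and −0.44 for Orc5, which was called lower (adjusted p = 5.3e-04). These small values depended on the scale: with offsets for transcript length and GC content Orc2 was −0.14 and Orc4 −0.19, and on log2(TPM + 1) Orc5 was 0.05. The FPKM ratio of Orc1 to Orc2 was 0.502, 0.518 and 0.520 in CDC, 0.255, 0.273 and 0.388 in CDC-EpiC, and 0.0867, 0.0614 and 0.0899 in pEpiC.

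Helicase activation genes were all lower in both comparisons with CDC, where 38.5% and 34.6% of all genes tested were lower. Their median log2 change was −2.46 in pEpiC and −0.98 in CDC-EpiC. Gins2, a GINS subunit, gave 49.9, 59.4 and 44.2 CPM in the CDC libraries, 24.2, 19.5 and 23.7 CPM in the CDC-EpiC libraries and 7.02, 5.36 and 6.13 CPM in the pEpiC libraries. The kinds were separate, with pEpiC 8.55-fold and CDC-EpiC 2.29-fold below CDC. Gins4, of the same complex, gave 32.8, 32.6 and 34.5 CPM in the CDC libraries, 29.8, 25.3 and 27.2 CPM in the CDC-EpiC libraries and 19.0, 15.5 and 17.7 CPM in the pEpiC libraries. It kept the order but moved little, by −0.98 ± 0.08 in pEpiC and −0.29 ± 0.08 in CDC-EpiC. Gins3 gave 5.21, 5.31 and 6.97 CPM in the CDC libraries, 1.95, 2.31 and 2.35 CPM in the CDC-EpiC libraries and 2.43, 1.26 and 2.14 CPM in the pEpiC libraries. This was the 1 gene of the group for which CDC-EpiC and pEpiC overlapped (log2 0.18 ± 0.25, adjusted p = 0.529), both lying below CDC, and the sign of that difference turned to −0.11 on log2(TPM + 1). Cdc45, which joins GINS on the ring, fell by 2.99 in pEpiC and by 1.19 in CDC-EpiC, and Mcm10 by 2.60 and 0.77. The FPKM ratio of Gins2 to Gins4 was 2.01, 2.42 and 1.70 in CDC, 1.08, 1.02 and 1.15 in CDC-EpiC, and 0.490, 0.456 and 0.456 in pEpiC, highest in CDC and lowest in pEpiC in each library.

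Of the clamp and its loader, all 5 genes fell at least 2-fold in pEpiC (14.4% of all genes tested) and 4 fell in CDC-EpiC (34.6%). Pcna, the sliding clamp that tethers the polymerases, gave 227, 238 and 205 CPM in the CDC libraries, 154, 133 and 152 CPM in the CDC-EpiC libraries and 53.9, 41.7 and 43.6 CPM in the pEpiC libraries. The kinds did not overlap, and the level in pEpiC was 4.97-fold lower and in CDC-EpiC 1.53-fold lower than in CDC. Rfc2, a small subunit of the loader, gave 55.3, 50.3 and 45.5 CPM in the CDC libraries, 51.3, 47.5 and 49.3 CPM in the CDC-EpiC libraries and 16.3, 14.7 and 16.1 CPM in the pEpiC libraries. The CDC-EpiC libraries fell inside the CDC range (log2 −0.03 ± 0.08, adjusted p = 0.728), and pEpiC lay below both. Rfc3, Rfc4 and Rfc5 were lower by 0.64 to 0.82 in CDC-EpiC. The large loader subunit Rfc1, which was not among the 40 and is named after its value was seen, stood at −0.14 ± 0.05 in pEpiC vs CDC (adjusted p = 0.0381). That call was lost in several other settings and the sign turned to 0.35 on log2(TPM + 1).

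Polymerase and primase genes fell in both comparisons with CDC, 6 of 6 each time, where 38.5% and 34.6% of all genes tested were lower. Their medians were −1.85 and −0.72. Pold1, the catalytic subunit of polymerase delta, gave 64.1, 62.2 and 51.9 CPM in the CDC libraries, 25.6, 24.3 and 29.7 CPM in the CDC-EpiC libraries and 11.9, 10.1 and 11.1 CPM in the pEpiC libraries. The libraries of the kinds were apart, with falls of 5.56-fold in pEpiC and 2.24-fold in CDC-EpiC. Pola1, the catalytic subunit of polymerase alpha, which starts each new strand with primase, gave 18.9, 15.3 and 16.7 CPM in the CDC libraries, 10.6, 7.99 and 8.90 CPM in the CDC-EpiC libraries and 7.37, 7.36 and 7.27 CPM in the pEpiC libraries. Its levels in CDC-EpiC and pEpiC lay close without overlapping (log2 0.32 ± 0.12, adjusted p = 0.0356), and the call was lost in 10 of the alternatives and the sign turned in one, to −0.06 on log2(TPM + 1). Pola2, its accessory subunit, fell by 1.56 in pEpiC beside 1.25 for Pola1. The further subunits of polymerases delta and epsilon were not among the 40 and are named after their values were seen, and differences between subunits were not tested. In pEpiC vs CDC the log2 changes were −1.93 for Pold2, −0.38 for Pold3 and −0.67 for Pold4 beside −2.47 for Pold1. For polymerase epsilon they were −1.98 for Pole2, −0.76 for Pole3 and −1.48 for Pole4 beside −2.14 for Pole. The signs of Pold3, Pold4 and Pole3 were not stable: Pold3 was 0.11 on log2(TPM + 1), and with offsets for length and GC Pold4 was 0.02 and Pole3 0.10.

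**Figure D3:**
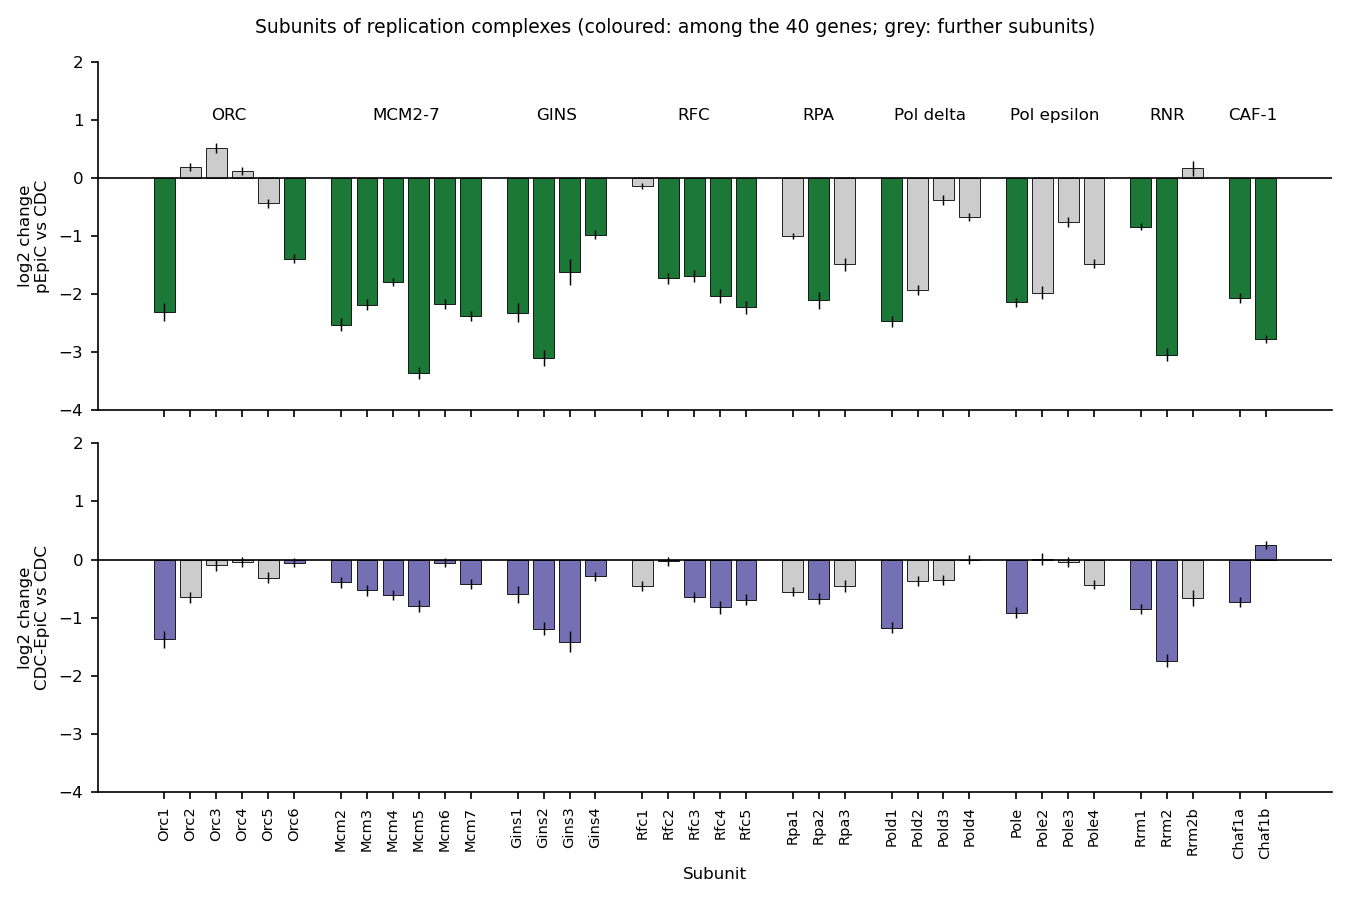
log2 fold change with its standard error (bars from 0) for the subunits of replication complexes in pEpiC vs CDC (upper) and CDC-EpiC vs CDC (lower); coloured bars are among the 40 genes and grey bars are further subunits. In the upper panel Orc1 at −2.31 and Rrm2 at −3.04 stand beside Orc2 at 0.19 and Rrm2b at 0.16, and in the lower panel Chaf1b at 0.25 is the only coloured bar above 0.

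Lagging-strand genes followed the same order. Lig1, the ligase that seals Okazaki fragments, gave 87.2, 86.7 and 81.8 CPM in the CDC libraries, 41.1, 35.9 and 44.7 CPM in the CDC-EpiC libraries and 16.9, 12.5 and 15.1 CPM in the pEpiC libraries. The kinds did not overlap, and pEpiC was 5.93-fold and CDC-EpiC 2.11-fold below CDC. Fen1, the flap nuclease that prepares those fragments, gave 40.3, 40.8 and 37.6 CPM in the CDC libraries, 34.1, 33.8 and 41.8 CPM in the CDC-EpiC libraries and 14.1, 10.2 and 10.3 CPM in the pEpiC libraries. CDC-EpiC libraries 1 and 2 lay below the CDC range and library 3 above it, so the kinds overlapped. The change was −0.12 ± 0.09 (adjusted p = 0.250), and without that library it was −0.24 (adjusted p = 0.0316). Rpa2, of the single-strand binding complex, fell by 2.11 in pEpiC and by 0.67 in CDC-EpiC, beside −1.49 for Rpa3 in pEpiC vs CDC, a further gene named after its value was seen.

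In pEpiC vs CDC nucleotide supply held the gene that moved least, Rrm1, and some that moved most. Ribonucleotide reductase makes deoxynucleotides and is built from the large subunit Rrm1 and a small subunit, Rrm2 in S phase or Rrm2b. Rrm1 gave 254, 243 and 272 CPM in the CDC libraries, 145, 128 and 154 CPM in the CDC-EpiC libraries and 147, 142 and 152 CPM in the pEpiC libraries. CDC-EpiC and pEpiC overlapped, both at 1.80-fold below CDC, and the difference between them was −0.05 ± 0.07 (adjusted p = 0.542). That difference was 0.38 with an offset for transcript length (adjusted p = 4.1e-04) and −0.43 on log2(TPM + 1) (adjusted p = 7.9e-04), so its direction depended on the scale. Rrm2 gave 102, 102 and 96.4 CPM in the CDC libraries, 27.5, 25.6 and 37.3 CPM in the CDC-EpiC libraries and 15.2, 10.9 and 11.5 CPM in the pEpiC libraries. All kinds were separate, with falls of 8.22-fold in pEpiC and 3.33-fold in CDC-EpiC. The FPKM ratio of Rrm2 to Rrm1 was 0.739, 0.776 and 0.655 in CDC, 0.349, 0.369 and 0.446 in CDC-EpiC, and 0.191, 0.142 and 0.140 in pEpiC. Rrm2b, a further gene, did not pass in pEpiC vs CDC (0.16 ± 0.13, adjusted p = 0.270, and −0.40 with offsets for length and GC). Tk1, the thymidine kinase of S phase, gave 66.6, 70.6 and 54.9 CPM in the CDC libraries, 35.6, 30.6 and 37.1 CPM in the CDC-EpiC libraries and 8.84, 5.88 and 6.30 CPM in the pEpiC libraries. Its pEpiC libraries were 9.42-fold below CDC and its CDC-EpiC libraries 1.87-fold below, without overlap. Tyms, thymidylate synthase, fell by 2.19 in pEpiC and by 1.22 in CDC-EpiC.

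Chromatin genes split in the clone. Uhrf1, which brings the maintenance methyltransferase to newly copied DNA, gave 111, 102 and 97.9 CPM in the CDC libraries, 45.6, 43.7 and 55.7 CPM in the CDC-EpiC libraries and 15.0, 11.3 and 11.4 CPM in the pEpiC libraries. The kinds were separate, 8.48-fold and 2.15-fold below CDC for pEpiC and CDC-EpiC. Chaf1b, the middle subunit of CAF-1, which deposits histones behind the fork (chr16:93883900-93906115), gave 51.8, 53.1 and 51.3 CPM in the CDC libraries, 61.1, 59.6 and 66.2 CPM in the CDC-EpiC libraries and 8.11, 7.71 and 7.62 CPM in the pEpiC libraries. It was the 1 gene of the 40 that rose in CDC-EpiC vs CDC (log2 0.25 ± 0.07, adjusted p = 0.00635), with all CDC-EpiC libraries above all CDC libraries. Without CDC-EpiC library 3 the rise was 0.20 with adjusted p = 0.0602, and it did not pass a test against a 1.5-fold change. Against pEpiC it was 7.96-fold higher in CDC-EpiC, the largest such difference among the 40. Chaf1a, the large subunit, fell by 0.73 in CDC-EpiC and by 2.07 in pEpiC. The FPKM ratio of Chaf1b to Chaf1a was 1.64, 1.75 and 1.90 in CDC, 3.60, 3.60 and 3.43 in CDC-EpiC, and 0.926, 1.06 and 1.22 in pEpiC, so it was highest in the clone and lowest in pEpiC.

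Entry into S phase had the largest median change of the 8 roles in CDC-EpiC vs CDC, −2.25 on the log2 scale. Cyclin E binds Cdk2 to fire origins, and Ccne1 and Ccne2 encode its 2 forms. Ccne1 (chr7:38097984-38107490) gave 33.7, 33.5 and 28.6 CPM in the CDC libraries, 4.86, 4.90 and 5.40 CPM in the CDC-EpiC libraries and 8.84, 8.84 and 7.84 CPM in the pEpiC libraries. CDC-EpiC lay lowest without overlap, 6.33-fold below CDC (log2 −2.66 ± 0.10, adjusted p = 7.2e-12) and 1.68-fold below pEpiC (log2 −0.75 ± 0.11, adjusted p = 1.4e-04). This was the only gene of the 40 called lower in CDC-EpiC than in pEpiC, and the call against pEpiC was lost in a test against a 1.5-fold change (adjusted p = 0.0539). Ccne2 gave 32.2, 32.5 and 27.4 CPM in the CDC libraries, 6.94, 6.26 and 6.29 CPM in the CDC-EpiC libraries and 4.51, 2.66 and 3.37 CPM in the pEpiC libraries. In pEpiC it was lowest, 9.01-fold below CDC, and in CDC-EpiC it was 4.74-fold below. E2f1, an activating E2F, gave 66.7, 67.1 and 58.1 CPM in the CDC libraries, 64.7, 65.7 and 74.9 CPM in the CDC-EpiC libraries and 31.1, 30.6 and 31.2 CPM in the pEpiC libraries. CDC-EpiC overlapped CDC (log2 0.09 ± 0.08, adjusted p = 0.348), and pEpiC was 2.13-fold below CDC. The FPKM ratio of Ccne2 to Ccne1 was 0.690, 0.697 and 0.689 in CDC, 1.03, 0.919 and 0.832 in CDC-EpiC, and 0.370, 0.218 and 0.313 in pEpiC.

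Of the pocket protein genes, which belong to a further list of 16 E2F, RB and cyclin A genes, Rbl1 had the order of levels seen in most of the 40 and Rb1 and Rbl2 did not. Rb1, the retinoblastoma protein (chr14:73192858-73325951), gave 28.3, 26.7 and 29.3 CPM in the CDC libraries, 8.98, 9.21 and 9.70 CPM in the CDC-EpiC libraries and 27.7, 29.7 and 30.0 CPM in the pEpiC libraries. CDC-EpiC lay apart and low, 3.04-fold below CDC (log2 −1.60 ± 0.09, adjusted p = 3.3e-10), while pEpiC overlapped CDC (0.01 ± 0.06, adjusted p = 0.930) with a sign that turned between settings. Across settings the pEpiC vs CDC change of Rb1 ran from −0.53 to 0.49 and did not stay short of the threshold in all of them. Its change in CDC-EpiC vs CDC ran from −1.65 to −1.20. Rbl2, which represses cell cycle genes in resting cells, gave 27.8, 26.4 and 36.0 CPM in the CDC libraries, 33.4, 31.0 and 32.7 CPM in the CDC-EpiC libraries and 79.5, 75.5 and 74.5 CPM in the pEpiC libraries. It was 2.47-fold higher in pEpiC than in CDC (log2 1.30 ± 0.10, adjusted p = 1.1e-06) and did not pass in CDC-EpiC vs CDC (0.10 ± 0.10, adjusted p = 0.402), although without CDC library 3 it did (0.25, adjusted p = 0.0103). Rbl1, itself a gene driven by E2F factors, fell by 1.07 in pEpiC and by 0.52 in CDC-EpiC. Tfdp2, a partner of E2F proteins on DNA, rose in CDC-EpiC vs CDC by 1.05 ± 0.09 on the log2 scale (adjusted p = 3.5e-08).

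**Figure D4:**
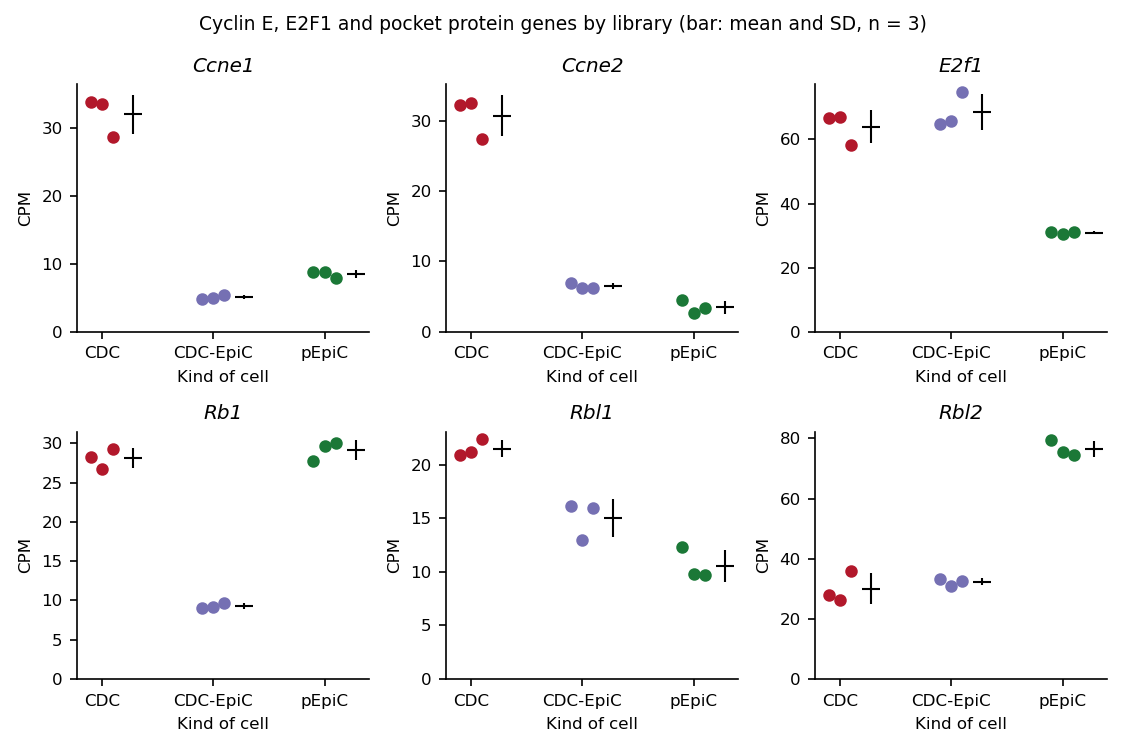
CPM of Ccne1, Ccne2, E2f1, Rb1, Rbl1 and Rbl2 (vertical axes from 0) in each of the 3 libraries of CDC, CDC-EpiC and pEpiC, with the mean and SD of each kind beside the points. Ccne1 (4.86 to 5.40 CPM) and Rb1 (8.98 to 9.70 CPM) are lowest in CDC-EpiC, and Rbl2 is highest in pEpiC (74.5 to 79.5 CPM).

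The other replication genes had smaller medians than the 40. Of 31 such genes, 27 were lower (38.5% of all genes tested) and 2 higher in pEpiC vs CDC, with a median log2 change of −1.13. Recql4, a helicase of origin firing, fell by 2.71 and Gmnn, the inhibitor of Cdt1, by 2.36, while Orc3 and Orc2 were the ones called higher. In CDC-EpiC vs CDC 22 were lower (34.6% of all genes tested) and 1 higher, with a median of −0.45. In a test against a 1.5-fold change 6 were lower, where 3664 of all 12976 genes were called, 44.1% of them higher. Clspn, an adaptor of the replication checkpoint, fell by 1.24, and Rnaseh2a, the catalytic subunit of RNase H2, rose by 0.36 ± 0.09 (adjusted p = 0.00257). In CDC-EpiC vs pEpiC 20 were higher (40.3% of all genes tested) and 4 lower. In the test against 1.5-fold 13 were higher, where 6578 of all 13547 genes were called, 47.6% of them higher. Pole2 was higher by 1.95, and Orc2 lower (−0.88 ± 0.08, adjusted p = 2.0e-06).

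Among 14 other nucleotide supply and chromatin genes, 13 were lower in pEpiC vs CDC (38.5% of all genes tested), with a median of −1.76, and none was higher. Asf1b, a histone chaperone of dividing cells, fell by 3.00 on the log2 scale. Cdca7, which helps remodel heterochromatin, fell by 2.90. In CDC-EpiC vs CDC 11 were lower (34.6% of all genes tested) and 2 higher. In the test against 1.5-fold 5 were lower, where 3664 of all 12976 genes were called, 44.1% of them higher. Hells, the remodeller with which Cdca7 works, was 2.82-fold lower, whereas Shmt1, a folate enzyme that feeds thymidylate synthesis, rose by 0.54 ± 0.09 (adjusted p = 5.7e-05). Cdca7 itself was 0.22 ± 0.09 above CDC (adjusted p = 0.0408), a call that was lost in 5 of the 6 fits that left out 1 library. Against pEpiC, 13 were higher in CDC-EpiC (40.3% of all genes tested), led by Cdca7 at 3.08, and Rrm2b was lower (−0.86 ± 0.09, adjusted p = 8.1e-06), a difference of 0.03 once length and GC were offset.

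Of the 16 E2F, RB and cyclin A genes, 10 were lower and 3 higher in pEpiC vs CDC (median −0.59), where 38.5% of all genes tested were lower. Of the same list 11 were lower and 4 higher in CDC-EpiC vs CDC (median −0.32), where 34.6% of all genes were lower. In the test against a 1.5-fold change 6 and 5 of the 16 were lower. That test called 5549 of all 13526 genes in pEpiC vs CDC, 50.5% of them higher. It called 3664 of 12976 in CDC-EpiC vs CDC, 44.1% of them higher. E2f7, a repressing E2F, fell by 2.64 and 1.28 in these comparisons. Ccna2, the cyclin of S phase and G2, fell by 2.36 in pEpiC. Against pEpiC, 10 were higher (40.3% of all genes tested) and 4 lower in CDC-EpiC. In the test against 1.5-fold 5 were higher, where 6578 of all 13547 genes were called, 47.6% of them higher.

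Genes of mitosis were lower too. All 18 were lower in pEpiC vs CDC (38.5% of all genes tested) with a median of −2.96, from −3.38 in Cenpa, the centromeric histone, to −1.57 in Mki67, the proliferation antigen. In CDC-EpiC vs CDC 17 of the 18 were lower (34.6% of all genes tested) with a median of −0.92. Mki67 fell most there, by 1.56, and Ccnb2 did not pass (−0.17 ± 0.11, adjusted p = 0.165). In CDC-EpiC vs pEpiC 17 were higher (40.3% of all genes tested) with a median of 1.95. Mki67 was the exception, at −0.02 ± 0.17 (adjusted p = 0.900), with a sign that turned between settings, up to 0.92 with offsets for length and GC.

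**Figure D5:**
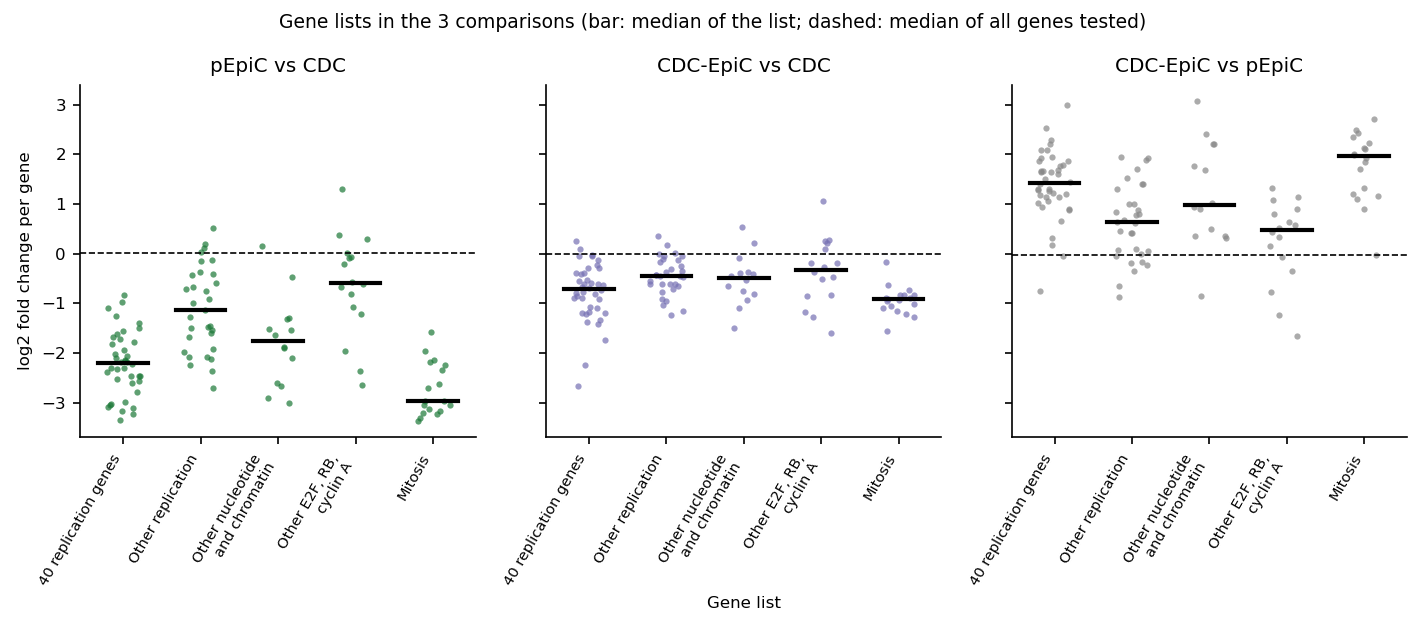
log2 fold change of each gene (points) in the 40 replication genes and the 4 further lists, for the 3 comparisons; thick bars are list medians and the dashed line is the median of all genes tested. In pEpiC vs CDC the medians run from −0.59 for the E2F, RB and cyclin A genes to −2.96 for the mitosis genes, with the 40 replication genes at −2.21.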

How the data were processed

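Messenger RNA of 9 libraries was purified with oligo(dT) beads, copied with random hexamers and sequenced on the BGISEQ-500 platform. The authors deposited a table of 18245 genes with an expected count, an FPKM value and a TPM value per gene and library. The submitters' processing notes name HISAT2 2.0.4, Bowtie2 2.2.5, RSEM 1.2.12, DESeq2 1.4.5 and the build mm10, without role or order. The gene annotation and the use of strand are not given in the sources used here, so overlapping genes and near-identical copies are uncertain. A further 9 columns hold the authors' values per kind of cell and were not used.

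Expected counts, 30.3% of them not whole, were rounded. Each pair of kinds was fitted alone in edgeR 4.0.16 (limma 3.58.1, R 4.3.3) with filterByExpr (minimum count 10, minimum total 15), TMM normalization and the quasi-likelihood test, with Benjamini-Hochberg adjustment over all genes tested and a threshold of 0.05. CPM are counts per 1000000 after TMM. Standard errors of log2 changes were derived from that test, as the absolute log2 change over the square root of its F statistic. FPKM was used only to compare levels between genes, and log2(TPM + 1) and log2(FPKM + 1) only as alternatives in limma. Tables and figures were made with Python 3.11.15, pandas 2.3.3, NumPy 2.4.6, SciPy 1.17.1 and matplotlib 3.10.9. The fits were tested on simulated data.

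The 40 genes, the further lists and the rules were chosen with earlier results of these data known. Values in every library are given for the gene of each role with the highest mean CPM, for the 3 genes with the largest and the 3 with the smallest change in each comparison, and for those that did not pass or moved against the majority. Further subunits and within-complex ratios were picked after their values were seen, and the ratios have no test. Alternatives were DESeq2 1.42.0, RLE factors or plain library size in place of TMM, the filter dropped or raised to 10 counts in each library, all 9 libraries in one fit, a test against a 1.5-fold change, TPM and FPKM in limma, offsets for transcript length and for length with GC content, the library number as a replicate block, and leaving out each library.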

Additional observations from a re-analysis of the deposited data

How the results depend on the processing

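All 40 replication genes remained lower in pEpiC vs CDC under each of the 18 alternatives, with medians between −2.34 and −1.64. In CDC-EpiC vs CDC the 34 lower genes became 32 to 35 when 1 library was left out and 20 in a test against a 1.5-fold change. In CDC-EpiC vs pEpiC the 37 higher genes ranged from 34 to 38. Over all genes the test against 1.5-fold called 5549 of 13526 in pEpiC vs CDC, 50.5% of them higher. It called 3664 of 12976 in CDC-EpiC vs CDC (44.1% higher) and 6578 of 13547 in CDC-EpiC vs pEpiC (47.6% higher). The same test against 1.5-fold left 6 of 22 other replication genes lower in CDC-EpiC vs CDC and 13 of 20 higher in CDC-EpiC vs pEpiC, 5 of 11 other nucleotide and chromatin genes lower in CDC-EpiC vs CDC, and 6 of 10, 5 of 11 and 5 of 10 E2F, RB and cyclin A genes in the 3 comparisons. On TPM that last list gave 6, 6 and 6, DESeq2 gave 7 in CDC-EpiC vs CDC, and leaving out 1 library gave 7 to 11 there, the 7 being without CDC library 1. The cause was not tested.

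Scaling moved the median of all genes. It was 0.41 on TPM, 0.13 by library size alone, −0.15 with the length offset and −0.14 with length and GC in pEpiC vs CDC (38.9% of calls higher with length and GC), and −0.33 on TPM, 0.22 with length and 0.24 with length and GC in CDC-EpiC vs pEpiC (63.4% of calls higher with length and GC). The 40 genes less the median of all genes stood at −2.05 on TPM in pEpiC vs CDC and −2.23 in the reported fit.

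Some changes turned sign, and neither they nor the turned values were all small. Rrm1 with length in CDC-EpiC vs pEpiC passed the threshold after turning. In pEpiC vs CDC these were Orc5 0.05, Rfc1 0.35 and Pold3 0.11 on TPM, Orc2 −0.05, Pole3 0.07, Rrm2b −0.25, Tfdp2 −0.31 and Rb1 −0.41 with length, Orc2 −0.14, Orc4 −0.19, Pold4 0.02, Pole3 0.10, Rrm2b −0.40, Tfdp2 −0.35 and Rb1 −0.53 with length and GC, and Rb1 at −0.03, −0.02 and −0.01 in 3 of the fits without 1 library (CDC 2, pEpiC 3 and pEpiC 2). In CDC-EpiC vs CDC they were Orc6 0.01, Mcm6 0.01 and Rfc2 0.03 by library size alone, Orc6 0.02, Mcm6 0.03 and Rfc2 0.05 on TPM, Orc6 0.004, Mcm6 0.01 and Rfc2 0.03 on FPKM, Orc6 0.01 and Rfc2 0.03 with length, Orc6 0.13 and E2f1 −0.04 with length and GC, and Rfc2 from −0.10 to 0.04 as 1 library was left out, 0.04 being without CDC library 1. In CDC-EpiC vs pEpiC they were Gins3 −0.11 and Pola1 −0.06 on TPM, Rrm1 0.38 and Mki67 0.88 with length, Rrm1 0.63, Orc3 0.04, Rrm2b 0.03 and Mki67 0.92 with length and GC, and, as 1 library was left out, Rrm1 from −0.10 to 0.03 and Mki67 from −0.16 to 0.21 (above 0 without CDC-EpiC library 2 for both, and without pEpiC library 1 for Mki67) and Gins3 from −0.06, without pEpiC library 2, to 0.37.

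The labels give no replicate numbers. Libraries with the same column number showed weak correlations of their deviations (−0.101 to 0.162), and the numbers were not taken as pairs. A shared preparation was not tested. With the library number as a replicate block the counts of the 40 genes stayed at 40, 34 and 37. With 3 libraries per kind, changes near the size of those of Cdt1, Pola2 or Chaf1b in CDC-EpiC vs CDC passed or missed the threshold depending on the alternative.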
